A study of Homo sapiens with 2 samples.

Results

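Aminoacyl-tRNA synthetases were examined in 293T cells exposed to Y27632. The genes were taken by symbol: 1 letter followed by ARS1 or ARS2, together with EPRS1, FARSA and FARSB, which gave 37 synthetases, 20 cytosolic and 17 mitochondrial. Of these, 27 had a value, 18 cytosolic and 9 mitochondrial, out of 11057 named genes with a value on either array. All 27 had a value on both arrays. The other 10 had no probe under their own symbol in the annotation used here, so the mitochondrial set is covered less fully than the cytosolic one.

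An aminoacyl-tRNA synthetase joins an amino acid to its tRNA, the step that fixes the genetic code in protein synthesis. Cytosolic enzymes serve cytosolic ribosomes. A separate, nuclear-encoded set serves the mitochondrial ribosome, and GARS1 and KARS1 supply both compartments. The enzymes fall into 2 classes with unrelated catalytic folds. Several cytosolic synthetases are held in a multisynthetase complex by the scaffold proteins AIMP1, AIMP2 and EEF1E1. When amino acids run short, the kinase EIF2AK4 (GCN2) senses uncharged tRNA and the transcription factor ATF4 raises many cytosolic synthetase genes.

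293T is an established human embryonic kidney line that carries the SV40 large T antigen, and Y27632 inhibits the kinases ROCK1 and ROCK2. On the array for 3 h, RNA of cells exposed to 10 µM Y27632 for 3 h was labelled with Cy3, and RNA of untreated cells, given a time of 0 h, with Cy5. The titles of both arrays say control and a time and do not name the inhibitor, which was taken from the source name and agent of the Cy3 channel. The array for 6 h paired cells exposed to 10 µM for 6 h with untreated cells in the same dyes. The labels name no vehicle in the untreated cells and do not say whether both arrays used 1 preparation of untreated RNA, so both comparisons may share their control. With 1 array per time, no value has a replicate, no p-value is given, and the inhibitor cannot be told apart from time in culture, handling or dye.

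Each probe had 1 deposited log ratio per array, read here as base 2. The numerator is not given in the sources used here, so every sign below is that of the deposited ratio, and a positive value is called neither a rise nor a fall. Turning the ratio round would exchange positive and negative throughout. The only measure of error for a gene is the disagreement among probes of the same gene. Its SD, called the probe SD below, was 0.31 on the 3 h array and 0.33 on the 6 h array, from 572 genes with several probes. It covers probes and not cultures, and it gives no error for the change of a probe between the arrays. Values were present for 20503 of 24267 probes at 3 h and 20337 at 6 h, and the median probe lay at 0 on each array. No spot intensities were used, so the abundance of a transcript and the identity of the cells could not be checked. The 7 kidney and neural lineage markers (PAX2, PAX8, LHX1, NEFL, NEFM, NEFH and INA) had log ratios with medians of −0.18 and −0.15. NEFL was lowest, at −0.73 and −0.69, followed by LHX1 at −0.51 and −0.45 and NEFM at 0.04 and −0.53, and INA was highest, at 0.58 and 0.45, before NEFH at −0.18 and 0.23 and PAX2 at 0.06 and −0.15. Among markers of blood, endothelium, fibroblasts and liver, 6 of 8 had a value at 3 h and 4 at 6 h, with medians of −0.165 and −0.48. CDH5, an endothelial cadherin, had −0.72 and −0.55, PECAM1 −0.11 and −0.54, CD14 −0.17 and −0.42, and CD3E 0.03 and −0.12. Their part in the synthetase values was not tested.

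The promoters are shown first because many of the synthetase genes have a sequence feature that the choice by symbol did not use. RefSeq promoters (GRCh38.p14) were matched by symbol for 23 of the 27 measured synthetases, and the 250 bases before the farthest upstream start were searched on both strands. The letters CCGGAAG, the core recognised by ETS transcription factors, occurred in 12 of 23 synthetase promoters (52.2%), against 11.8% of 15842 protein-coding promoters of the same length. The median GC content was 62% in both. HARS1 and HARS2 are counted separately among the 12, although their matches are the same sites in a shared region. A match is a description of letters and not of a bound site. Examples follow with the match in capitals, on the strand of the gene, so that a match on the other strand appears as CTTCCGG. TARS1 is shown because it lay farthest from 0, and the others as examples of either orientation near the start.
TARS1, chr5:33440633-33440661, plus strand: ccgaaaacttcCCGGAAGtttagaccaag
RARS1, chr5:168486425-168486453, plus strand: gggggtttccgCTTCCGGgagaggctgac
SARS1, chr1:109213834-109213862, plus strand: ccaaccagccgCTTCCGGtcgcggggagg
KARS1, chr16:75647703-75647731, minus strand: ccccctctcccCCGGAAGaggtggggctt
WARS1, chr14:100376335-100376363, minus strand: gcgccgtcgggCCGGAAGttgttccgtcc

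The printed matches ended 46 bases before the start in TARS1, 29 in RARS1, 42 in SARS1, 49 in KARS1 and 19 in WARS1. The further promoters with the letters were those of CARS1, HARS1, HARS2, MARS2, NARS1, SARS2 and TARS2. The log ratios did not separate by the feature. Synthetases with the letters (n = 12) had a median of 0.105 at 3 h and of 0.095 at 6 h, and those without (n = 11) had 0.12 and 0.11.

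The genes of the cytosolic and mitochondrial histidine enzymes, HARS1 and HARS2, lie head to head, and 84 bases separate their annotated starts. That stretch is shown because 1 short region serves both genes. It has CCGGAAG once at each end, in opposite orientation, read here on the strand of HARS2.
Between HARS1 and HARS2, chr5:140691371-140691454, plus strand: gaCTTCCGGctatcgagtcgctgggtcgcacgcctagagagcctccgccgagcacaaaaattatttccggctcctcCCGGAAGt

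The ATF4 composite element was searched as TGATGNAA, in which N is any base. It occurred in 2 of 23 synthetase promoters, AARS1 and IARS1, and in 2.2% of all promoters. Both matches lie on the strand opposite to the gene, so the capitals show the reverse complement. They are printed because both genes are in the list of synthetases that ATF4 is known to raise.
AARS1, chr16:70289675-70289704, minus strand: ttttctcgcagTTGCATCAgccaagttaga
IARS1, chr9:92293698-92293721, minus strand: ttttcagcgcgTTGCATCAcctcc

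The match ended 180 bases before the start in AARS1 and 6 bases before it in IARS1. An E-box, CACGTG, was present in IARS1 and MARS2, 8.7% of 23 synthetase promoters, near the 7.8% of all promoters. The YY1 letters AAGATGGC were present in FARSA and NARS1, also 8.7%, against 1.41%. Each of these shares rests on 2 promoters. No motif overlaps another in the printed stretches.

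Synthetase transcripts lay within narrow limits at 3 h. Their log ratios ran from −0.13 to 0.70 with a median of 0.12, against 0.02 for 10810 named genes, and 21 of 27 were positive, where 51.3% of all genes were. Cytosolic enzymes made up most of the positive side, with 17 of 18 positive. Past 1.5-fold, a log ratio of 0.58, lay 1 synthetase on the positive side (4.88% of all genes) and 0 on the negative side (4.49%). These shares are near the background. The SD across synthetases was 0.19 and that across all genes 0.36. The synthetase SD is also below the probe SD of 0.31, which comes from genes with several probes. Since 24 of 27 synthetases have 1 probe, that SD may not be the size of their own error.

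At 6 h the range was −0.41 to 0.68 with a median of 0.10, against 0.02 for 10716 genes. There were 20 positive and 4 negative synthetases and 3 at exactly 0, where 51.5% of all genes were positive. Again 1 lay past 1.5-fold on the positive side (5.63% of all genes) and 0 on the negative side (4.24%). The SD across synthetases was 0.20, against 0.36 across all genes. The synthetase median differed from that of all genes by 0.10 on the 3 h array and 0.08 on the 6 h array, and with 1 array per time these shifts were not tested.

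**Figure D1:**
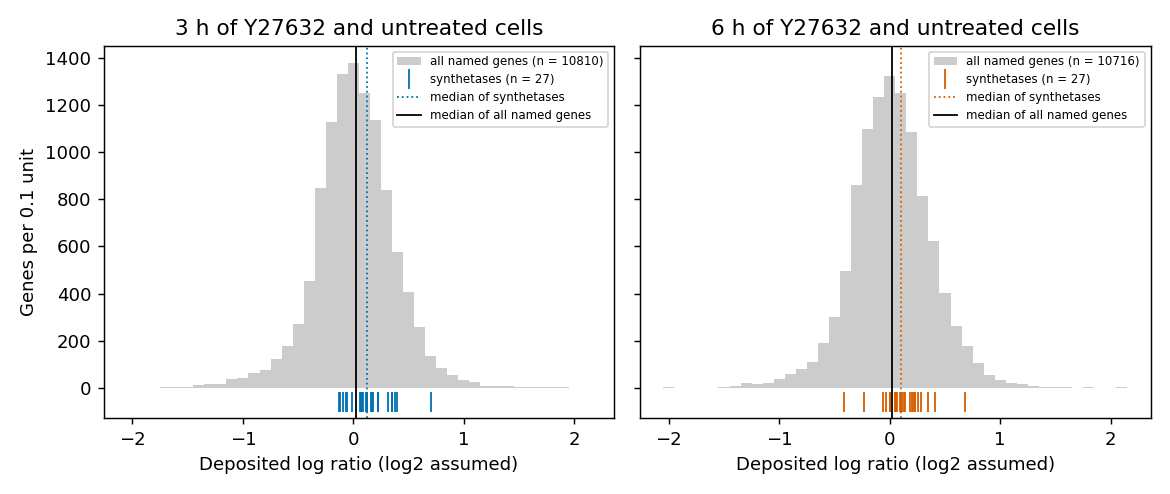
Histograms of the deposited log ratio of all named genes (grey, genes per 0.1 unit) at 3 h and 6 h, with a tick for each of the 27 synthetases below. The synthetase medians of 0.12 and 0.10 (dotted) lie to the right of the median gene at 0.02 (solid), and the ticks cover the centre of the distribution.

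TARS1, the cytosolic threonine enzyme, was the 1 synthetase past 1.5-fold at each time. Its probe, H300017448, had a log ratio of 0.70 at 3 h and 0.68 at 6 h, differences of 1.62-fold and 1.60-fold. Both values were farther from 0 than those of any other synthetase measured here. A single probe carries them, so they cannot be checked against a second one. The mitochondrial threonine enzyme TARS2 had 0.07 and 0.00. TARS3, a cytosolic threonine enzyme close to TARS1 in sequence, had 0.17 and 0.18, so the enzymes nearest to TARS1 in function lay closer to 0.

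Further cytosolic genes followed on the positive side. HARS1, the histidine enzyme, had 0.38 at 3 h and 0.41 at 6 h, or 1.30-fold and 1.33-fold. NARS1, the asparagine enzyme, had 0.35 and 0.28. These gaps to 0 are only slightly larger than the probe SD, and the NARS1 value at 6 h is smaller than it.

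Phenylalanyl-tRNA synthetase is built from 2 different subunits, FARSA (alpha) and FARSB (beta). FARSB had 0.35 at 3 h and 0.26 at 6 h. FARSA had a mean of 0.165 and 0.13, but its probes disagreed. Probe H300004093 gave 0.34 and 0.27, close to FARSB, whereas H300004215 gave −0.01 at both times. The array annotation lists these probes under separate older symbols, FARSL and FARSLA. Whether the subunits gave like values therefore depends on which FARSA probe is read.

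The remaining class II cytosolic genes lay nearer 0. SARS1, the serine enzyme, had 0.12 and 0.20, and GARS1, the glycine enzyme, had 0.12 and 0.07. AARS1, the alanine enzyme, was the 1 cytosolic synthetase negative at 3 h, with −0.07, and had 0.23 at 6 h. That difference of 0.30 was the largest positive one among the synthetases, and with 1 array per time it has no measure of error. Over both compartments, the 13 measured class II enzymes had a median of 0.165 at 3 h and of 0.20 at 6 h, with 11 and 12 positive. None was negative at 6 h as deposited, and 1 (TARS2, at 0.00) was after centring on the median gene.

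Class I enzymes had medians nearer 0, of 0.07 and 0.05, and of 13 measured genes 9 were positive at 3 h and 7 at 6 h. Among the cytosolic ones outside the complex, CARS1 (cysteine) had 0.07 and 0.05, YARS1 (tyrosine) 0.07 and 0.06, and WARS1 (tryptophan) 0.06 and 0.00. WARS1 is also known as an interferon-induced gene. These 3 were among the cytosolic genes closest to 0. The medians of the classes differed by 0.095 and 0.15, and the difference was not tested. EPRS1, which joins an enzyme of each class in 1 protein, was counted in neither.

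Of the 8 synthetases of the multisynthetase complex, 7 were measured, and all 7 were positive at 3 h with a median of 0.16. LARS1, the leucine enzyme that also reports leucine to the mTORC1 pathway, had 0.39 at 3 h and 0.14 at 6 h. EPRS1, for glutamate and proline, had 0.22 and 0.18. KARS1, for lysine, had 0.18 and 0.05. The LARS1 value at 3 h is the highest of the complex, and at 6 h RARS1 was highest instead.

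QARS1, the glutamine enzyme, had 0.16 at 3 h and 0.00 at 6 h. IARS1, the isoleucine enzyme, had 0.11 at both times. RARS1, for arginine, had 0.09 and 0.23. MARS1, the methionine enzyme, had 0.08 and −0.03, the 1 negative value of the complex at 6 h. The median of the 7 at 6 h was 0.11, with 5 positive.

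The scaffolds and other partners of charging had values of the same sign. EEF1E1 had 0.42 at 3 h and 0.24 at 6 h, and AIMP1 had 0.35 and 0.18. DTD2, which removes wrongly attached amino acids from tRNA, had 0.25 and 0.18. With TARS3, 4 of the 7 genes of this list had a value, with medians of 0.30 and 0.18. All were positive, where 51.3% and 51.5% of all genes were. Past 1.5-fold lay 0 on the positive side (4.88% and 5.63% of all genes) and 0 on the negative side (4.49% and 4.24%).

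**Figure D2:**
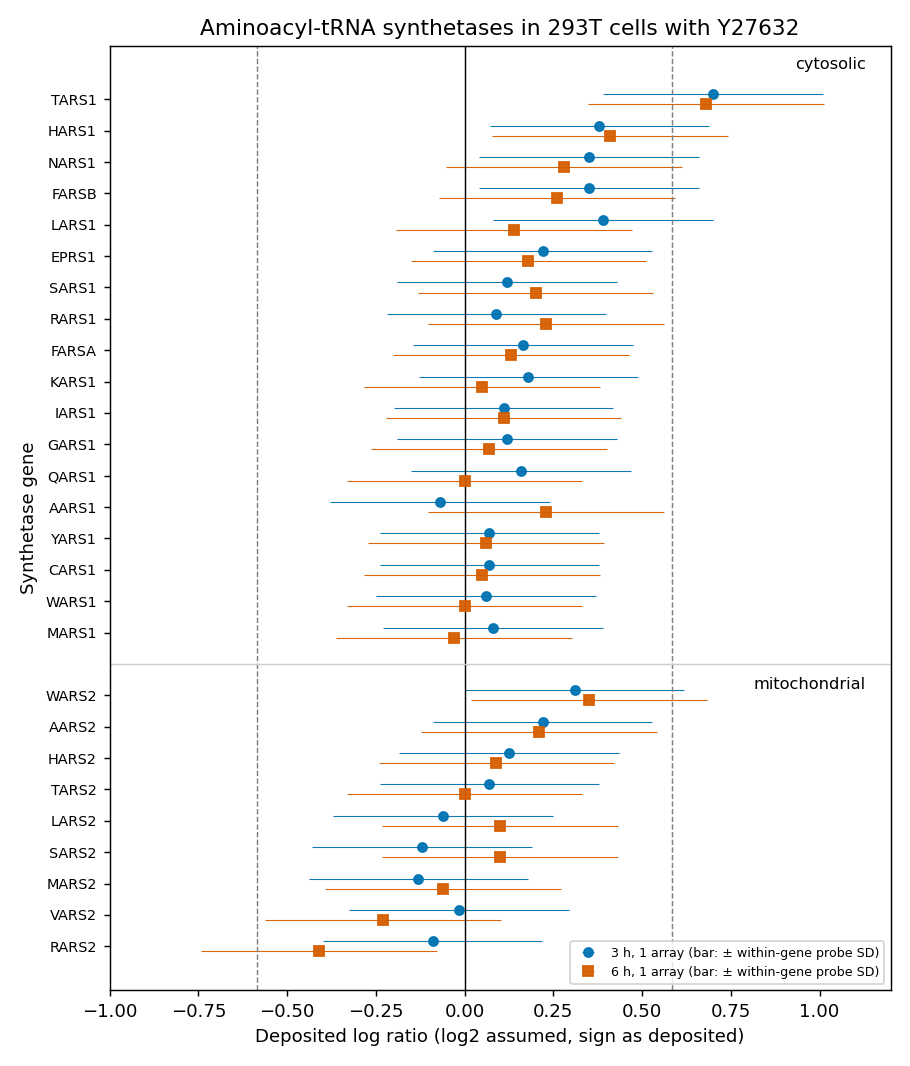
Deposited log ratio of each measured synthetase at 3 h (circles) and 6 h (squares), with bars of ± the within-gene probe SD (0.31 and 0.33) and dashed lines at 1.5-fold. TARS1 alone lies past a dashed line, and RARS2 is lowest at 6 h with −0.41 among these means over probes.

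The 9 measured mitochondrial synthetases spread around 0, with a median of −0.015 at 3 h, where 4 were positive, and of 0.09 at 6 h, where 5 were. The mean at 3 h, 0.03, had the other sign. WARS2, for tryptophan, was highest with 0.31 and 0.35. AARS2, for alanine, had 0.22 and 0.21. MARS2, for methionine, had −0.13 and −0.06. LARS2 had −0.06 at 3 h and 0.10 at 6 h, and SARS2 had −0.12 and 0.10. The WARS2 values rest on 1 probe and lie only just past 1 probe SD from 0 at each time. Those of AARS2, MARS2, LARS2 and SARS2 lie within 1 probe SD of 0, so their signs are not settled.

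RARS2, the mitochondrial arginine enzyme, had −0.09 at 3 h and −0.41 at 6 h, a 1.33-fold difference at 6 h. With probes averaged, its value at 6 h and its difference between the times, −0.32, were the most negative of the 27. With VARS2 read from its probe farthest from 0, or from the probe listed as VARS2L alone, VARS2 was lower, at −0.51 and −0.46. The RARS2 difference rests on 1 probe and has no measure of error. The cytosolic counterpart RARS1 had its higher value at 6 h.

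Both HARS2 and VARS2 had probes that may belong to different genes. The array annotation lists 1 probe as HARS2 and another as HARSL, an older name of HARS2, and HARS2 was itself once a name of DTD1, a tRNA deacylase. The probe listed as HARS2 gave 0.08 and −0.04 and that listed as HARSL 0.17 and 0.22, for a mean of 0.125 and 0.09. Likewise VARS2 was once a name of the cytosolic valine enzyme VARS1, and VARS2L a name of the mitochondrial one. The probe listed as VARS2 gave 0.02 and 0.05, and that listed as VARS2L gave −0.05 and −0.51. The mean for VARS2, −0.015 and −0.23, thus joins a probe near 0 with one that is lower than any synthetase gene at 6 h. Read under the older names, a choice made after the data were seen, the medians of the mitochondrial set became −0.05 and 0.10 and those of 19 cytosolic genes 0.12 and 0.13.

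Cytosolic and mitochondrial enzymes for the same amino acid could be set side by side for 8 amino acids. The cytosolic gene had the higher deposited log ratio, which would be the lower one if the ratio were turned, in 6 of 8 pairs at 3 h, with a median difference of 0.225, and in 7 of 8 at 6 h, with a median difference of 0.07. The threonine pair differed most, by 0.63 and 0.68. The arginine pair differed by 0.18 at 3 h and 0.64 at 6 h. Leucine differed by 0.45 at 3 h and 0.04 at 6 h. At 6 h the alanine and methionine pairs differed by only 0.02 and 0.03. These gaps at 6 h are far below the probe SD of 0.33, so their direction is not settled. The tryptophan pair ran the other way at both times, by −0.25 and −0.35, and alanine did at 3 h, by −0.29. Pairs are genes and not replicates of a condition, each gene outside the histidine pair rests on 1 probe, and no test was made.

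**Figure D3:**
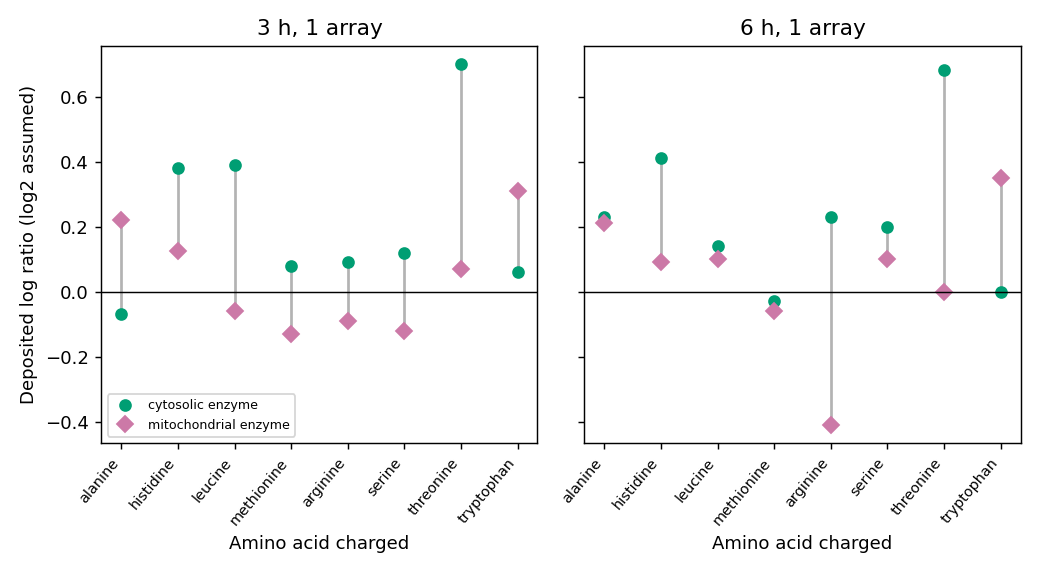
Deposited log ratio of the cytosolic (circles) and mitochondrial (diamonds) enzyme for each of 8 amino acids, at 3 h and 6 h, 1 array each. The circle is above the diamond in 6 of 8 pairs at 3 h and 7 of 8 at 6 h, and the threonine pair is widest apart at both times.

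The shared region between HARS1 and HARS2 printed above did not go with equal log ratios, since HARS1 had 0.38 and 0.41 and the probe listed as HARSL 0.17 and 0.22. Their differences of 0.21 and 0.19 are within the probe SD. A further 4 synthetases have a protein-coding neighbour on the opposite strand whose start lies within 1000 bases, head to head. RARS2, at −0.09 and −0.41, faces ORC3, a subunit of the origin recognition complex, at 0.38 and 0.24. KARS1, at 0.18 and 0.05, faces TERF2IP, a telomere protein gene, at 0.30 and 0.19. SARS2, at −0.12 and 0.10, faces MRPS12, a mitochondrial ribosomal protein gene, at −0.15 and −0.24. WDR25, the neighbour of WARS1, had no value. RARS2 and ORC3 were thus the neighbours farthest apart, with opposite signs at each time.

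When the log ratio at 3 h was subtracted from that at 6 h, the synthetases had a median of −0.035 and ran from −0.32 to 0.30, against a median of −0.01 for 10469 genes. There were 18 negative values among 27, where 51.2% of all genes were negative. None of the 27 lay past 1.5-fold on the positive (3.05% of all genes) or the negative side (2.7%). The SD across synthetases was 0.14, against 0.29 across all genes. Apart from RARS2 and AARS1, the larger differences were those of LARS1 (−0.25), SARS2 (0.22), VARS2 (−0.215), LARS2 (0.16) and QARS1 (−0.16). With 1 array per time, time and array cannot be told apart.

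The 12 synthetases listed as ATF4 targets were all measured and had a median of 0.115 at 3 h and of 0.125 at 6 h, with 11 and 10 positive. The 6 measured cytosolic synthetases outside that list had 0.1725 and 0.18, with 6 and 5 positive. The other genes of the amino acid response had medians nearer 0, 0.045 and 0.10 over 30 of 33 genes, with 17 and 19 positive. At 3 h, 0 of the 30 lay past 1.5-fold on the positive and 1 on the negative side (4.88% and 4.49% of all genes), and at 6 h 1 and 0 (5.63% and 4.24%).

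ATF4 itself had −0.01 and 0.02, and EIF2AK4, the kinase upstream of it in this response, had 0.52 and 0.49. PSPH, the last enzyme of serine synthesis, had 0.47 and 0.54. SLC38A2, an amino acid transporter gene, had 0.25 and 0.68, the 1 value of the list past 1.5-fold at 6 h. At the other end, ATF3, a stress-induced factor, had −0.75 and −0.40, CEBPB −0.37 and −0.51, and SLC7A5, a leucine transporter gene, −0.405 and −0.305. ASNS, the asparagine synthetase gene much used as a marker of the response, had 0.29 and 0.30, and DDIT3 had −0.01 and 0.09. ATF4, ASNS and DDIT3 were chosen after their values were seen.

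Genes that mature and export tRNA had medians farther from 0 than the synthetases, 0.33 and 0.25 over 16 of 24 genes, with 12 positive at each time. Past 1.5-fold lay 2 on the positive side at 3 h and 3 at 6 h, and 0 on the negative side at either. Over all genes, the shares were 4.88% and 5.63% on the positive side and 4.49% and 4.24% on the negative side. ELAC1, a tRNA 3′ endonuclease, had 1.15 and 0.65, and SSB, the La protein that binds new tRNA transcripts, had 0.84 and 0.88. RPP30, a subunit of RNase P, had 0.38 and 0.64. The lowest were RPP25, another RNase P subunit, at −0.46 and −0.49, HSD17B10 at −0.11 and −0.10 and POP7 at −0.03 and −0.10.

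Of the mitochondrial genes that amidate or formylate charged tRNA or end translation, 3 of 7 had a value, with medians of 0.47 and 0.60. Past 1.5-fold on the positive side lay 1 at 3 h and 2 at 6 h (4.88% and 5.63% of all genes). On the negative side lay 0 at either time (4.49% and 4.24%). With 3 genes, these counts say little about the list. QRSL1, a subunit of the amidotransferase that makes glutaminyl-tRNA in mitochondria, had 0.71 and 0.65, past 1.5-fold at both times. MTRF1, a release factor, had 0.47 and 0.60, past 1.5-fold at 6 h only. GATB, the partner subunit of QRSL1, had 0.06 and −0.01, so the subunits of this enzyme differed by 0.65 and 0.66. That is more than the probe SD, but the probe SD measures 1 probe, and a difference between 2 probes varies more.

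Elongation factors, which carry charged tRNA to the ribosome and move it on, had medians of 0.03 and 0.01 over 9 of 11 genes, with means on the other side of 0 (−0.0072 and −0.036). Centring on the median gene turned the median at 6 h to −0.01. At 3 h 0 lay past 1.5-fold on either side (4.88% and 4.49% of all genes), and at 6 h 1 did, on the negative side (4.24%). GFM1, a mitochondrial elongation factor, had 0.32 and 0.46, EEF1A2 0.03 and 0.27, and EEF2 0.06 and 0.16. GFM2, which recycles mitochondrial ribosomes but was counted in this list, had −0.22 and −0.71. It is the 1 gene past 1.5-fold at 6 h and pulls both means down, and means without it were not computed. EEF1B2 had −0.215 and −0.355, and EEF1G had −0.26 and −0.15, both subunits of the exchange factor that reloads EEF1A with GTP.

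**Figure D4:**
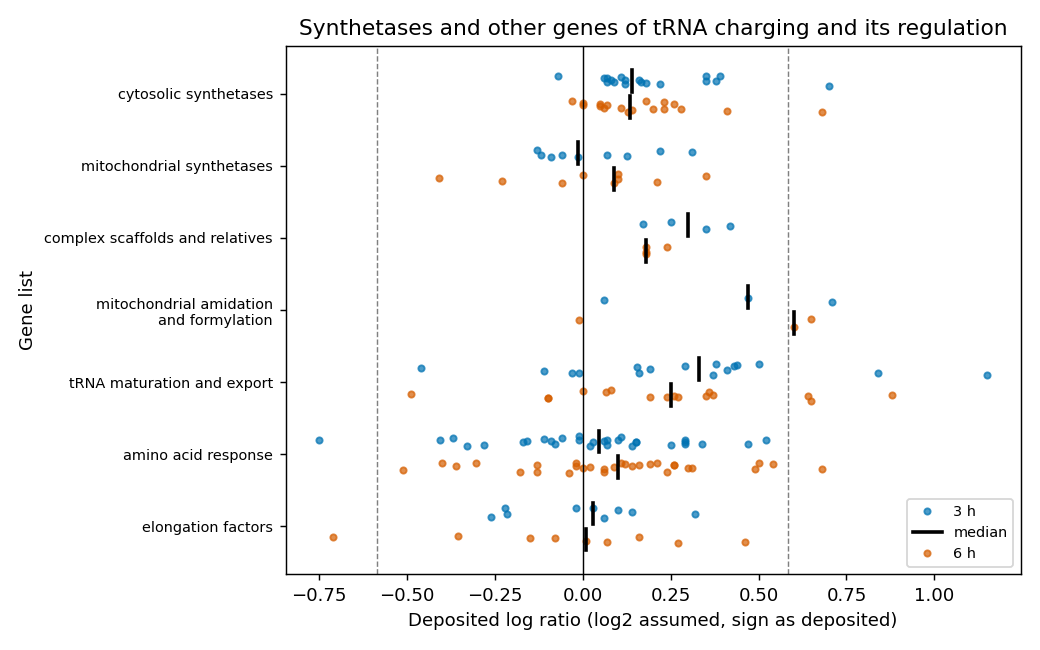
Deposited log ratio of each gene (points) in the synthetase groups and 5 lists of related genes at 3 h and 6 h, with the median of each list (black bars) and dashed lines at 1.5-fold. The tRNA maturation list reaches 1.15 and has medians of 0.33 and 0.25, while the mitochondrial synthetases have −0.015 and 0.09.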

How the data were processed

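RNA of 293T cells was measured on 2 dual-colour arrays, 1 per time. The deposited table holds log ratios of the channels, taken as log2, with 1 value per probe and array. How the authors corrected background, normalized and filtered spots, and which log base and numerator they used, is not given in the sources used here. Of the probes, 13395 had 1 symbol in the platform annotation, 0 had several and 10872 had none. RefSeq (GRCh38.p14) held 10822 of the symbols as current, 2434 were replaced by the 1 gene with that synonym, 16 synthetase symbols were given their final 1, and 123 ambiguous ones were kept. A gene is the mean of its probes. Genes past 1.5-fold (0.58) were counted in each sign and set beside the same over all named genes, and lists by counts and medians. No test across samples was possible. All measured synthetases are named, and from each list the 3 highest and 3 lowest by the mean of both times. Members, lists and motifs were chosen with earlier results of these data known. The counting was run on simulated data in which every synthetase had a known shift and the noise was far smaller than in these arrays. That run checks the code and not the accuracy of counts or medians at the real noise. Alternatives covered the probe summary, centring, symbols, genes used, size and log base. Python 3.11.15, pandas 2.3.3 and numpy 2.4.6 were used.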

Additional observations from a re-analysis of the deposited data

How the results depend on the processing

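Group medians moved by less than the probe error (the probe SD divided by the square root of the number of genes) with the probe farthest from 0, centring on the median gene, symbols as listed, genes with a single probe, and both other treatments of the HARS2 and VARS2 probes (read as DTD1 and VARS1, or left out), which were chosen after seeing the data. Synthetases with a value under the farthest probe, centring, symbols as listed or those treatments moved by less than 1 probe SD. AARS2, FARSA, FARSB, RARS2 and TARS2 had no value with symbols as listed. Both limits are wide beside values near 0, so a change of sign can fall within them. With symbols as listed, the mitochondrial median of 6 h minus 3 h went from −0.01 to 0.055. HARS2 at 6 h went from 0.09 to −0.04, and VARS2 at 6 h from −0.23 to 0.05. The median of probes and the limit to genes on both arrays could change nothing for the synthetases, since none had more than 2 probes and all had both values. The count of synthetases past 1.5-fold was 1 at each time and changed with the size. At 2-fold it was 0 at 3 h and 0 at 6 h, since a larger size is asked. Of all named genes, 71 of 10810 lay past 2-fold on the positive and 103 on the negative side at 3 h. At 6 h these were 75 and 78 of 10716. If the deposited logarithm were natural, the count of synthetases would be 3 at 6 h, with HARS1 and RARS2 beside TARS1. The same fold is then a smaller log ratio, and the share of all genes past it was not computed. No paired analysis was possible because each time has 1 array and no result comes from a test, and no replicate could be left out. The number of arrays and the absence of intensities here limit every value. The error used covers probes alone, and 24 of 27 synthetases have 1 probe. For 6 h minus 3 h, the probe SDs of both arrays were combined as the root of the sum of their squares. Each of those SDs alone exceeds the SD of that difference across all genes, 0.29. The limit is therefore too wide to serve as an error of the change, and staying within it says little. VARS2 went from −0.215 to −0.46 with the probe farthest from 0 and still fell within it.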
